A study of Drosophila melanogaster with 28 samples.

Results

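The genes of 10 Drosophila insulator and promoter architecture proteins, BEAF-32, Cp190, su(Hw), mod(mdg4), CTCF, Dref, Trl, pita, Chro and Z4, were examined as places where the hybrid incompatibility protein HMR was found on chromatin. They were taken by name, 10 of 18277 annotated genes, and a gene counted as occupied in a library when a peak of that library lay in the gene or within 1 kb of it. Z4 is annotated under the symbol pzg. Chromatin immunoprecipitation with sequencing (ChIP-seq) was done in SL2 cells, an embryonic Drosophila line, and 18 immunoprecipitated libraries each had a list of peak positions. In the HMR-dC cells a FLAG-HA-tagged HMR that lacks its C-terminus, with the BESS domain through which HMR binds LHR, was expressed, and in the HMR-wt cells the tagged full-length protein. Both constructs were driven by the copper-inducible metallothionein promoter pMT in stably transfected, hygromycin-selected cells, with Myc-LHR expressed alongside by the study's methods, and both were induced with 250 µM CuSO4 for 20 to 24 h. No uninduced cells or cells without a construct were compared, and the cells still made their own HMR. Anti-FLAG precipitated the tagged protein alone (5 HMR-dC and 5 HMR-wt libraries), whereas anti-HMR precipitated tagged and endogenous HMR together (4 HMR-dC and 4 HMR-wt libraries). In both constructs, anti-HMR replicates 1, 2, 3 and 4 came from the same chromatin as anti-FLAG replicates 1, 2, 4 and 3, in that order, and replicate 5 of each anti-FLAG group was made with another library kit (NEBNext in place of MicroPlex). By the labels each library of a group had a chromatin preparation of its own, and the study describes the anti-FLAG libraries as biological replicates.

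Insulator proteins bind DNA between genes and enhancers or at promoters, and mark borders of chromatin domains. In Drosophila they fall into proteins that read a DNA sequence (su(Hw), CTCF, BEAF-32, pita and the GAGA factor encoded by Trl) and cofactors that are brought in by them (Cp190 and mod(mdg4)). Dref binds promoters of growth and replication genes, and Chro (Chromator) and Z4 (putzig) act together in the open interbands of polytene chromosomes. The data here concern their genes and not the proteins.

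The sequences under the peaks that the results turn on are given first, from the dm6 assembly and outside annotated UTR exons, so that a stretch can be shorter than its region. The Z4 promoter was called in 15 of 18 lists, and the mod(mdg4) promoter and the mod(mdg4) intron differed in which antibody called them most. The Cp190 promoter held the BEAF-32 motif 3 times in its central window. Of these, 1 is in the stretch shown, and the others overlap as both strands of a TATCGATA. The su(Hw) region, in an intron of some of its transcripts, was called with anti-HMR but in no anti-FLAG list. Each is written 5′ to 3′ on the strand of the gene, and for the mod(mdg4) promoter the 300 bases next to the transcript start are shown. The first capitals of that stretch lie under the peak of anti-FLAG HMR-dC replicate 2 alone. At su(Hw) the centre of the region lies in a 5′ UTR exon and is not shown. The downstream stretch at su(Hw) lies under the anti-HMR peak of HMR-wt replicate 3 alone. Capitals mark CGATA on either strand (TATCG on the other), the motif of BEAF-32, or TATCGATA, the DRE motif of Dref.
Z4 promoter, chr3L:21285963-21286098, + strand: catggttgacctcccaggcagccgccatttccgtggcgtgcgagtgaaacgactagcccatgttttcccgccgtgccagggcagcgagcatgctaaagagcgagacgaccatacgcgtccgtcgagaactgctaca
mod(mdg4) promoter, chr3R:21377402-21377701, - strand: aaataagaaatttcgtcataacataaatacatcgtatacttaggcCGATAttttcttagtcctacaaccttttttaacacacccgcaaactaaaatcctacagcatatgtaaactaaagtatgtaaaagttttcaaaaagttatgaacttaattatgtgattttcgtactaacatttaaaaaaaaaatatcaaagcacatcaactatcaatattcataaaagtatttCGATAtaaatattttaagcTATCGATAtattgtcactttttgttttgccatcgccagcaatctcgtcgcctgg
mod(mdg4) intron, between divergent starts, chr3R:21365489-21365608, - strand: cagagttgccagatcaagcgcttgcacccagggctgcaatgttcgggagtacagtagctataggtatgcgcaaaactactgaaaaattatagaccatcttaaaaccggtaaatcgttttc
Cp190 promoter, chr3R:15275242-15275410, - strand: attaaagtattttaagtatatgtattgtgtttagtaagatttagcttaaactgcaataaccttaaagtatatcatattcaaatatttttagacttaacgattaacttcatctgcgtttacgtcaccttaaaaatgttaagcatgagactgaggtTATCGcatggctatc
su(Hw) intron, upstream side, chr3R:14308209-14308254, - strand: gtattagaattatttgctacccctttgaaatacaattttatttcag
su(Hw) intron, downstream side, chr3R:14307986-14308034, - strand: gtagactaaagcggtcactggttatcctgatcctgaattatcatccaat

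**Figure D1:**
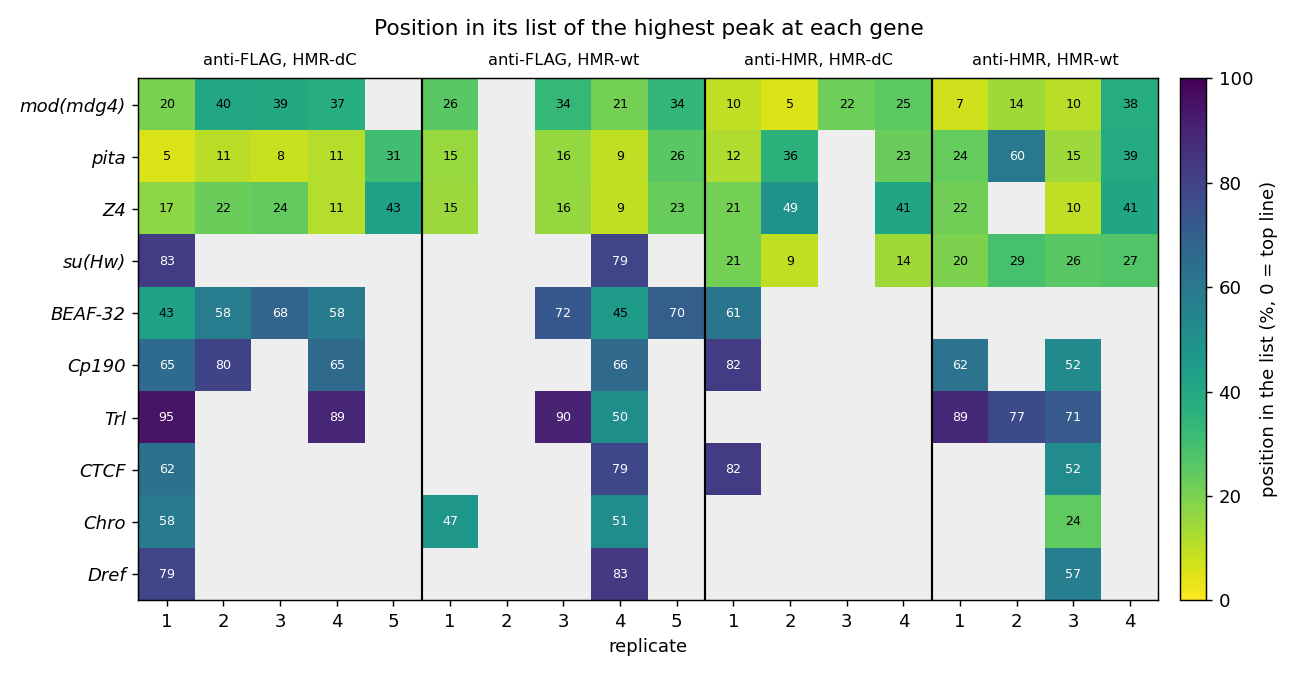
Position of the highest peak at each of the 10 genes (rows) in each of the 18 lists (columns, by antibody, construct and replicate), as a percentage of the list with 0 at its top line, and grey where the list had no peak at the gene. The mod(mdg4), pita and Z4 genes were filled in 15 or 16 of 18 lists and mostly stood in the upper part of the lists, su(Hw) was filled in 7 of 8 anti-HMR lists against 2 of 10 anti-FLAG lists, and Chro, CTCF and Dref were filled in 3 or 4 lists.

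All 10 genes had a peak in at least 1 of the 18 lists, and mod(mdg4), pita and Z4 held 34, 34 and 15 of the 134 peaks. With anti-FLAG, 4 of 10 genes had a peak in at least 5 of 10 lists: pita and Z4 in 9 each, mod(mdg4) in 8 and BEAF-32 in 7. With anti-HMR, 4 of 10 had a peak in at least 4 of 8 lists: mod(mdg4) in 8, su(Hw) and pita in 7 each, and Z4 in 6. Among all annotated genes, 22.4% met the anti-FLAG rule, 18.4% the anti-HMR rule and 54.1% had a peak in any list. Among the 13968 protein-coding genes the shares were 26.7%, 21.6% and 61.3%. No test was made of the 10 genes as a list, which was chosen with results of these data known.

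The genes that met neither rule were called in fewer lists, and mostly in the long ones. Cp190 and Trl each had a peak in 4 of 10 anti-FLAG and 3 of 8 anti-HMR lists, Chro in 3 and 1, CTCF in 2 and 2, and Dref in 2 and 1. The su(Hw) gene, with its 7 anti-HMR lists, had a peak in 2 of 10 anti-FLAG lists. The lists held 1093 to 3096 peaks with anti-FLAG in HMR-dC cells and 465 to 4427 in HMR-wt cells, and 1640 to 3184 with anti-HMR in HMR-dC cells and 1150 to 9049 in HMR-wt cells. Between 4.31% and 45.5% of all annotated genes had a peak in a list. Both ends of this range were HMR-wt libraries: anti-FLAG replicate 2 (465 peaks) had a peak at none of the 10 genes, and anti-HMR replicate 3 (9049 peaks) at 9. All 10 genes were called in anti-FLAG HMR-dC replicate 1 (3096 peaks) and HMR-wt replicate 4 (4427 peaks). The anti-HMR library of HMR-dC replicate 3 stood apart the other way, with 1958 peaks and 1 of the 10 genes. The part of list length in these calls was not tested. Without the shortest and the longest list of each antibody, 4 genes still met the anti-FLAG rule and 4 the anti-HMR rule.

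**Figure D2:**
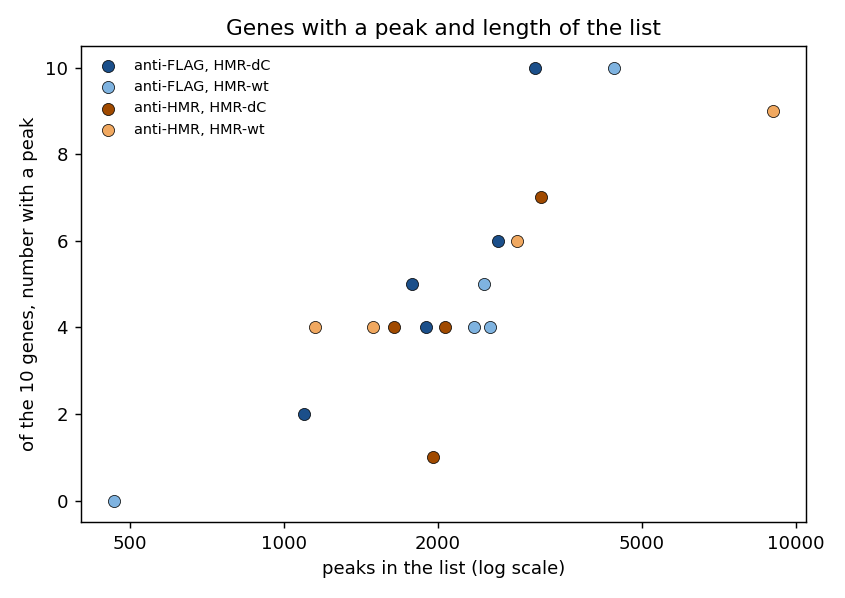
Number of the 10 genes with a peak (vertical axis) against the number of peaks in the list (horizontal axis, log scale), 1 point per library, coloured by antibody and construct. The list of 465 peaks had a peak at 0 of the 10 genes and that of 9049 peaks at 9, and anti-HMR HMR-dC replicate 3 lay lowest among lists of its length, with 1 gene.

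Most peaks at these genes lay on transcript starts. Of 134 peaks counted over the 18 lists, 115 (85.8%) had their midpoint within 250 bp of the start of an annotated transcript of any gene, against 59.5% of the 46127 peaks of all lists and 65.5% of the 41666 peaks in or within 1 kb of a protein-coding gene, which were selected as the peaks here were. Of the 134, 66 were within 250 bp of a start of the gene itself, and the others near a start were at neighbouring genes or at partial transcripts inside mod(mdg4). Peaks that overlapped between lists were joined into 24 regions, of which 8 were called in a single list and 6 in at least 9 lists. The midpoints of 17 regions were within 250 bp of any start and of 10 within 250 bp of a start of the gene, where 41.5% of the 10004 regions in or within 1 kb of a protein-coding gene were within 250 bp of any start. Peaks were called at a fixed 200 bp, so a region wider than that reflects shifts between libraries.

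Of the 10 genes, pita and Z4 stood highest in each anti-FLAG list that called them, with their peaks at promoters. The pita gene encodes a zinc finger protein that binds DNA and brings in Cp190. In HMR-dC cells the pita promoter peak stood at lines 167, 189, 158, 293 and 337 of the anti-FLAG lists, and in HMR-wt cells at lines 361, 388, 417 and 649, with no peak in replicate 2. No HMR-dC line was as far down as any HMR-wt line. Measured as a percentage of the list, where 0 is the top, the positions were 5.36, 10.5, 8.29, 11.1 and 30.8 in HMR-dC cells against 15.3, 15.8, 9.40 and 25.6 in HMR-wt cells, and the groups overlapped. Without HMR-wt replicate 2 the mean line was 228.8 in HMR-dC cells and 453.75 in HMR-wt cells (exact permutation test, two-sided, p = 0.0159, adjusted p = 0.0507 over 1892 genes with a peak in all 9 lists). By the same test, 40.3% of those genes stood nearer the top by line in HMR-dC cells with p under 0.05, so such a shift was common among all genes tested. As a percentage of the list the means were 13.2 in HMR-dC cells and 16.5 in HMR-wt cells (exact permutation test, p = 0.563).

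Z4, a zinc finger partner of Chromator, shares its only called region with the divergent gene CG12974, whose start is 35 bp from the centre of the region, against 102 bp for the start of Z4. The anti-FLAG peak stood at 17.0, 22.3, 24.2, 11.3 and 42.8% of the list in HMR-dC cells against 15.2, 15.7, 9.04 and 23.4% in HMR-wt cells, again with none in HMR-wt replicate 2. The 2 constructs overlapped, and the means without that replicate were 23.5 in HMR-dC cells and 15.8 in HMR-wt cells (exact permutation test, p = 0.302). With anti-HMR it stood at 21.1, 48.6 and 41.4% in HMR-dC cells, with none in replicate 3, against 21.7, 9.50 and 41.4% in HMR-wt cells, with none in replicate 2. Giving each peak to the gene with the nearest transcript start moves many of these peaks to CG12974, and the presence difference at Z4 under anti-FLAG, 5 of 5 HMR-dC against 4 of 5 HMR-wt lists, then changed sign.

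The pita gene had 3 called regions. Anti-FLAG lists held the promoter peak 9 times of 10 and anti-HMR lists 6 times of 8. A region in the coding sequence, 507 bp downstream of the start, appeared with anti-FLAG in 2 lists of 10, both HMR-dC, and in 5 of 8 anti-HMR lists. Another region, beyond the 3′ end of pita, was at the start of the neighbour wmd and appeared with anti-FLAG in 8 lists and with anti-HMR in 4. Where both were called, the promoter stood above the wmd region in every list (for example at line 167 against 1362 in anti-FLAG HMR-dC replicate 1).

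The gene mod(mdg4) encodes many protein isoforms, which are assembled by splicing between separate transcripts, and an isoform of it works with su(Hw) in the gypsy insulator. It was the only one of the 10 genes with a peak in all 8 anti-HMR lists. It is also the longest of them, at 26556 bp against 2162 to 13121 bp for the others, and any peak in the gene counted. No single region of it was called in all 8 lists, the most being 7. The part of gene length was not tested. The highest peak stood at 9.68, 5.37, 22.0 and 25.2% of the anti-HMR lists in HMR-dC cells, against 7.28, 14.4, 10.2 and 38.3% in HMR-wt cells. The 2 constructs overlapped (means 15.6 in HMR-dC and 17.5 in HMR-wt cells, exact permutation test, two-sided, p = 0.83). The sign of this small difference turned without any 1 of 3 libraries: it was -1.94 over all lists, 0.0235 without HMR-dC replicate 1, 1.46 without HMR-dC replicate 2 and 4.97 without HMR-wt replicate 4. With anti-FLAG the highest peak stood at 20.2, 40.3, 39.4 and 37.1% in HMR-dC cells, with none in replicate 5, against 25.7, 33.6, 20.9 and 33.7% in HMR-wt cells, with none in replicate 2.

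The mod(mdg4) peaks fell on 4 regions that the antibodies did not call alike. The promoter, centred 149 bp upstream of the start, appeared in 8 anti-FLAG lists of 10 and 3 anti-HMR lists of 8. A region 3805 bp downstream, at the starts of the partial transcripts pre-mod(mdg4)-AA, -N and -O, was called in 7 and 5 lists. The intronic region between divergent partial transcripts, 11901 bp downstream of the start and 12 bp from that of pre-mod(mdg4)-E, appeared in 3 anti-FLAG lists of 10 and 7 anti-HMR lists of 8. There it stood at 59.0 and 72.1% of 2 HMR-dC anti-FLAG lists and at 42.0% of 1 HMR-wt anti-FLAG list, against 5.37 to 25.2% of 3 HMR-dC anti-HMR lists and 7.28 to 38.3% of 4 HMR-wt anti-HMR lists. Every anti-HMR position was above every anti-FLAG position at this region. Over the 8 chromatin preparations with both antibodies, the presence difference was not past the threshold for the intronic region (3 against 7 lists, exact sign-flip permutation test, p = 0.219) or the promoter (7 against 3 lists, exact sign-flip permutation test, p = 0.125).

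**Figure D3:**
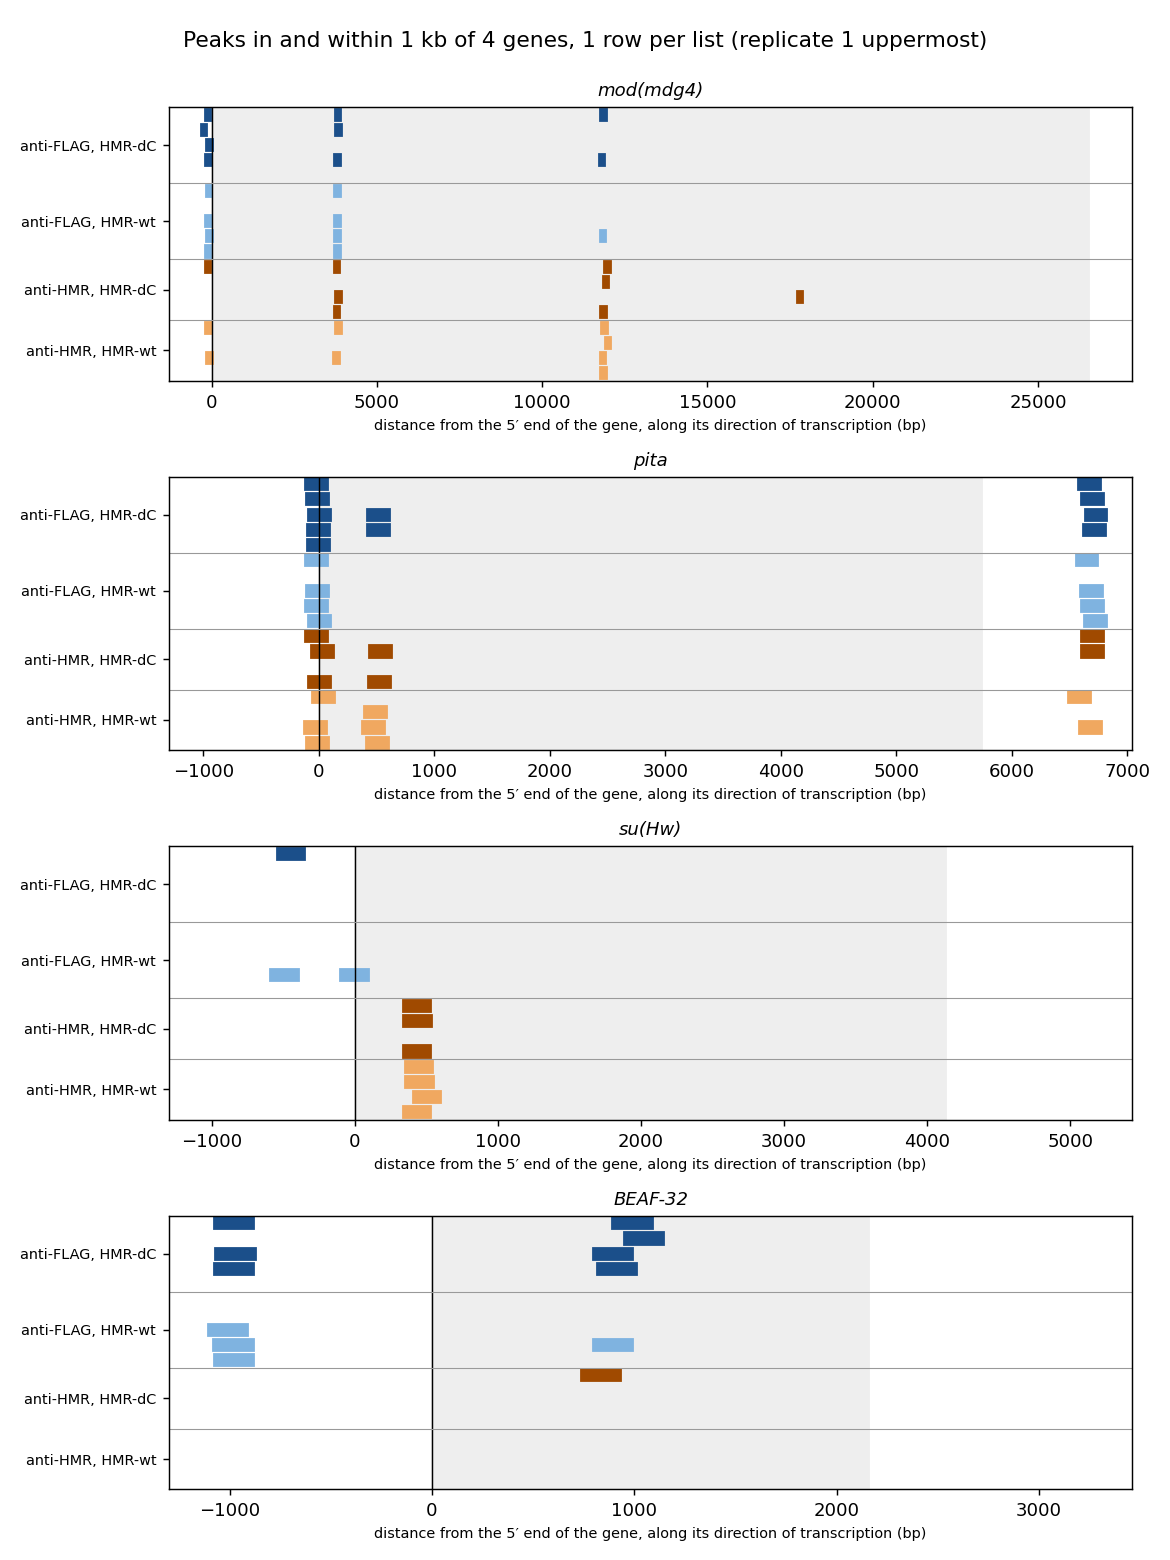
Peaks in and within 1 kb of mod(mdg4), pita, su(Hw) and BEAF-32, by distance from the 5′ end of the gene along its direction of transcription (horizontal axis, bp), with 1 row per list in 4 blocks of antibody and construct and the gene body in light grey. At su(Hw) the 7 anti-HMR peaks lie inside the gene and the anti-FLAG peaks of 2 lists lie at or upstream of its start, and at mod(mdg4) the intronic column near 11901 bp holds 7 anti-HMR lists and 3 anti-FLAG lists.

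The su(Hw) gene, which encodes the zinc finger protein of the gypsy insulator, was called mainly with anti-HMR. The anti-HMR peak stood at lines 664, 155 and 292 in HMR-dC cells, with none in replicate 3, and at lines 560, 334, 2320 and 406 in HMR-wt cells. These are 20.8, 9.40 and 14.1% of the HMR-dC lists and 19.6, 29.0, 25.6 and 27.1% of the HMR-wt lists. The region, chr3R:14307986-14308254, was centred 469 bp downstream of the start, in an intron of some su(Hw) transcripts and over a 5′ UTR exon of another. Anti-FLAG called it in 0 of 10 lists and anti-HMR in 7 of 8.

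With anti-FLAG, su(Hw) had a peak only in the longest list of each construct, at line 2558 in HMR-dC replicate 1 and at lines 3506 and 3734 in HMR-wt replicate 4. These lay elsewhere, at the divergent start of Polr2I, a subunit gene of RNA polymerase II, and at the start of su(Hw). Over the whole gene 2 of 8 anti-FLAG lists had a peak against 7 of 8 anti-HMR lists of the same chromatin (exact sign-flip permutation test, p = 0.0625, adjusted p = 0.885 over 9874 genes). Among all genes tested, 3.06% had p under 0.05 in that comparison, 37 with more anti-FLAG and 265 with more anti-HMR lists, and none passed after adjustment. None of the 10 genes was among them. For the joined region 469 bp downstream, a unit chosen after seeing the data, the comparison was 0 of 8 anti-FLAG against 7 of 8 anti-HMR lists (exact sign-flip permutation test, p = 0.0156, adjusted p = 0.882 over 12029 regions), where 2.63% of regions had p under 0.05 with fewer anti-FLAG lists. With 8 pairs the smallest possible p is 0.00781, which cannot pass adjustment over so many genes unless many of them share it.

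BEAF-32 had the opposite pattern of calls. It encodes a protein that binds clusters of CGATA, and had a peak in 6 of 8 anti-FLAG lists against 1 of 8 anti-HMR lists of the same chromatin (exact sign-flip permutation test, p = 0.0625, adjusted p = 0.885). The anti-FLAG peaks stood at 42.8, 57.9, 67.6 and 58.2% of the HMR-dC lists, with none in replicate 5, against 72.4, 44.8 and 69.6% of HMR-wt lists 3, 4 and 5. They were thus in the middle or lower part of the lists. They came from a region at the start of the upstream neighbour Spred, called in 3 HMR-dC and 3 HMR-wt lists, and from one in the BEAF-32 transcript start region, called in 4 of 5 HMR-dC and 1 of 5 HMR-wt lists (Fisher's exact test, p = 0.206).

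The values at su(Hw) and BEAF-32 by antibody depended on how presence was counted. At su(Hw) the paired difference of -62.5 percentage points became -75 with peaks in the gene body alone or given to the nearest transcript start (exact sign-flip permutation test, p = 0.03125 each), -87.5 with each list cut at its middle line (exact sign-flip permutation test, p = 0.0156) and -50 with the first 465 lines of every list (exact sign-flip permutation test, p = 0.125). Of all genes tested, 2.41%, 3.41% and 3.93% had p under 0.05 with fewer anti-FLAG lists for the gene body, the nearest start and the middle line. At BEAF-32 the difference of 62.5 points became 50 with the gene body, the peak midpoint or the nearest start (exact sign-flip permutation test, p = 0.125 each), 37.5 with 5 kb around the gene (exact sign-flip permutation test, p = 0.25) and 25 with the middle line (exact sign-flip permutation test, p = 0.5). Without the pairing by chromatin, 2 of 10 anti-FLAG against 7 of 8 anti-HMR lists had a peak at su(Hw) (Fisher's exact test, p = 0.0152), where 5.49% of genes had p under 0.05 with fewer anti-FLAG lists. BEAF-32 then had 7 of 10 against 1 of 8 (Fisher's exact test, p = 0.0248), where 3.49% of genes had p under 0.05 with more anti-FLAG lists. None of these p-values was adjusted.

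The first 465 lines hold all of the shortest list but only the top of the longest. Within them the difference was 75 points at both pita and Z4, with more anti-FLAG lists (exact sign-flip permutation test, p = 0.03125 each), and 8% of 2226 genes had p under 0.05 in that direction. At mod(mdg4) it was -62.5 points (exact sign-flip permutation test, p = 0.0625).

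Position in the list was compared over the same pairs of libraries. Where a list with no peak was put at the bottom (100), su(Hw) averaged 95.2 in anti-FLAG and 30.7 in anti-HMR lists of the same chromatin (exact sign-flip permutation test, n = 8 pairs, p = 0.0156, adjusted p = 0.0563). The mod(mdg4) gene averaged 39.6 in anti-FLAG and 16.5 in anti-HMR lists (exact sign-flip permutation test, p = 0.0156, adjusted p = 0.0563). By the same test 13.1% of 5120 genes stood nearer the bottom with anti-FLAG with p under 0.05. Z4 averaged 26.8 in anti-FLAG and 48.0 in anti-HMR lists (exact sign-flip permutation test, p = 0.0156, adjusted p = 0.0563), and BEAF-32 averaged 68.0 and 95.1 (exact sign-flip permutation test, p = 0.03125, adjusted p = 0.0732). In this direction, nearer the top with anti-FLAG, 33.7% of the 5120 genes had p under 0.05. No gene of the 5120 passed after adjustment. For pita, at 22.0 with anti-FLAG and 38.4 with anti-HMR, p was 0.258 by the exact sign-flip permutation test.

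Only mod(mdg4) had a peak in both lists of 7 chromatin preparations, all but that of HMR-wt replicate 2. Its mean position over those 7 pairs was 31.0 with anti-FLAG and 16.9 with anti-HMR (exact sign-flip permutation test, p = 0.03125, adjusted p = 0.0489 over 618 genes). In 15.2% of those genes anti-FLAG was nearer the bottom with p under 0.05, and mod(mdg4) was 1 of 94 such genes, whereas 56.0% (346 genes) were nearer the top with anti-FLAG with p under 0.05. The adjusted p of mod(mdg4) is low because so many of the genes tested had p under 0.05. The peaks compared were not all of the same region, since the highest peak was at the promoter in most anti-FLAG lists and in the intron in most anti-HMR lists.

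**Figure D4:**
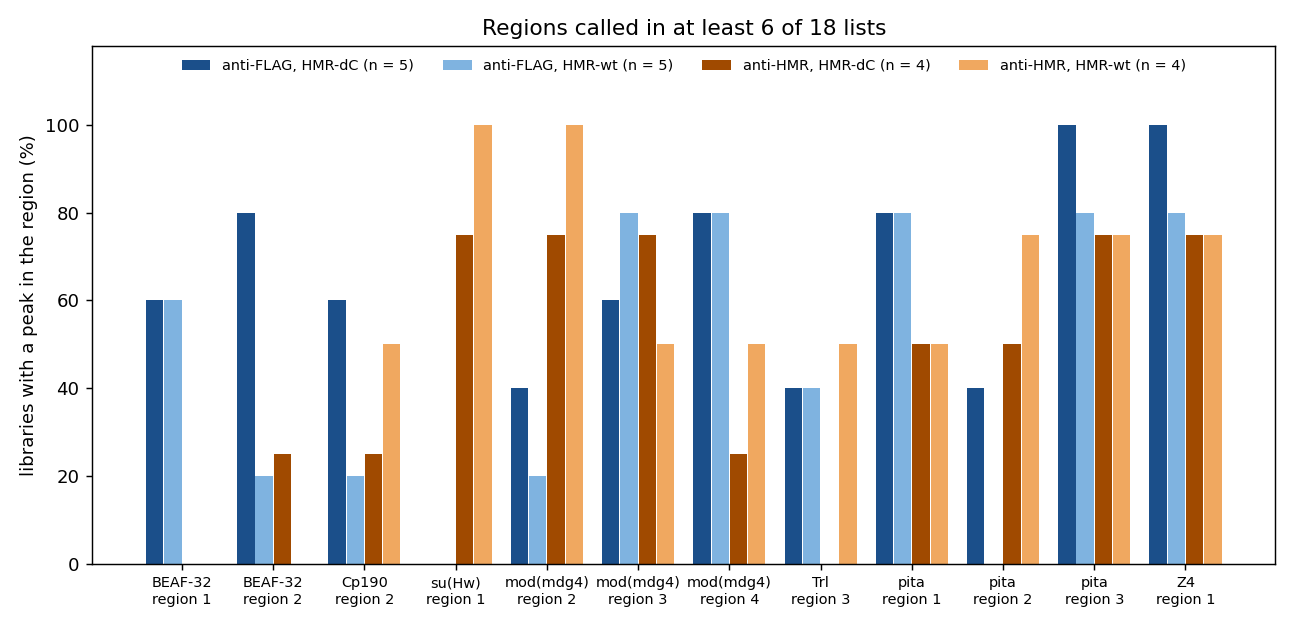
Percentage of the libraries of each group (vertical axis) with a peak in each region that was called in at least 6 of the 18 lists, with bars for anti-FLAG HMR-dC and HMR-wt (n = 5 each) and anti-HMR HMR-dC and HMR-wt (n = 4 each). The promoters of pita (region 3) and Z4 were called in 5 HMR-dC and 4 HMR-wt anti-FLAG lists each, and the su(Hw) region in 7 anti-HMR lists and no anti-FLAG list.

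No difference in presence between the constructs passed the test at any of the 10 genes. With anti-FLAG the largest difference was at Cp190, a cofactor shared by several insulator complexes, with a peak in 3 of 5 HMR-dC and 1 of 5 HMR-wt lists (Fisher's exact test, p = 0.524). For pita and Z4 it was 5 of 5 HMR-dC against 4 of 5 HMR-wt lists, for BEAF-32 4 against 3, for Chro 1 against 2, and for the other 5 genes the counts were equal. Over all 7073 genes with an anti-FLAG peak, 0.622% (44 genes) had p under 0.05, all with fewer HMR-dC lists, and none passed after adjustment. The smallest p with 5 against 5 lists is 0.00794, too large for adjustment over so many genes unless many share it.

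With anti-HMR the largest difference was at Trl, which encodes the GAGA factor that binds GA repeats. It had a peak in 0 of 4 HMR-dC and 3 of 4 HMR-wt lists (Fisher's exact test, p = 0.143). Without HMR-wt replicate 4, the HMR-wt list that lacked the peak, this became 0 of 4 against 3 of 3 (Fisher's exact test, p = 0.0286). Of all genes tested without that library, 0.0985% had p under 0.05 with fewer HMR-dC lists. Leaving out the only HMR-wt list without a Trl peak makes the separation complete, so that p follows from the omission and adds no support. The 3 HMR-wt lists did not call the same region: replicates 1 and 3 called the divergent start of Mgat4a and Tsen34, at 88.8 and 71.3% of the list, and replicate 2 an intron, at 77.5%. All were in the lower part of their lists. The same divergent start had a peak in 2 HMR-dC and 2 HMR-wt anti-FLAG lists. Over all 9142 genes with an anti-HMR peak, 0.0109% (1 gene) had p under 0.05 and none passed after adjustment, with 0.0286 as the smallest p of 4 against 4 lists.

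Cp190, Chro, Dref and CTCF were called mainly at their own starts, and mostly in the lower part of long lists. The Cp190 promoter, centred 33 bp upstream of the start, was called at 65.0, 79.6 and 65.3% of the HMR-dC and 65.6% of the HMR-wt anti-FLAG lists. With anti-HMR it stood at 82.3% of 1 HMR-dC list against 61.8 and 52.2% of 2 HMR-wt lists. The start of Chro, which encodes a chromodomain protein, is shared with the divergent Ssl1, a subunit gene of the general transcription factor TFIIH, and was called in 3 anti-FLAG lists and 1 anti-HMR list. Its highest position was 24.2% in the longest list, anti-HMR HMR-wt replicate 3. Dref shares its start region with the ribosomal protein gene RpL13, called in 2 anti-FLAG lists and 1 anti-HMR list at 79.2 to 84.0% of the list. The CTCF start, centred 88 bp downstream, was called in 2 anti-FLAG lists and 1 anti-HMR list at 62.1 to 82.2%. Of the 8 regions called in a single list, 4 (in Cp190 and Trl, and beside CTCF and Dref) were called in the list of 9049 peaks.

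The sequence within 100 bp of the centre of each region was searched on both strands for 6 short motifs. CGATA, read by BEAF-32, was found in 15 of the 24 regions (62.5%), against 33.3% of the 12046 regions of all lists. Regions near starts held it more often in general: it was in 14 of the 17 regions within 250 bp of a start, against 51.6% of the 4201 such regions of the series. Among regions called in at least 5 of 10 anti-FLAG lists it was in 6 of 7, against 52.0% of 2301. The region in the BEAF-32 gene itself held 4 copies. TATCGATA, the DRE motif, which contains CGATA on both strands, was in 2 regions (8.33%), the Cp190 and pita promoters, against 5.76% of all regions. Within 250 bp of a start it was in 2 of the 17 regions, against 13.8% of such regions of the series. The mod(mdg4) promoter held a copy of TATCGATA that crossed the edge of the central window, in the sequence shown for it. That copy was not counted as TATCGATA, but the CGATA in it was counted.

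The other motifs were found in few of the regions. GAGAG, read by the GAGA factor, was in 2 of 24 regions (8.33%), against 20.9% of all regions, and near starts in 2 of 17, against 17.8%. TGCATA, the core of the su(Hw) motif, was in 3 (12.5%), against 14.0%, but near starts in 3 of 17, against 10.7%. AGGTGGCG, the core of the CTCF motif, was in 0 of 24, against 1.11%, and near starts in 0 of 17, against 0.976%. GGTCACAC, the core of the motif of the promoter factor M1BP, was in 3 (12.5%), against 5.04%, and near starts in 3 of 17, against 13.1%. No su(Hw) core was found in the su(Hw) region called with anti-HMR, which says only that these letters are not in that window. These shares are descriptions, and no test was made on them.

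Other genes of insulator, cohesin and condensin proteins and their partners were counted in the same way. Of 27 listed, 26 were matched to the annotation. Of these, 24 had a peak in any list, 9 in at least 5 of 10 anti-FLAG lists and 9 in at least 4 of 8 anti-HMR lists. In that order the shares were 54.1, 22.4 and 18.4% of all annotated genes and 61.3, 26.7 and 21.6% of protein-coding genes. Some of the genes, such as shep, psq and Nipped-B, are long, which leaves more room for a peak under this rule. The part of gene length was not tested. Clamp, a zinc finger protein of dosage compensation, had a peak in 10 of 10 anti-FLAG and 8 of 8 anti-HMR lists, and fs(1)h, a bromodomain protein, in 10 and 7. Elba1 of the ELBA insulator complex was called in 8 anti-FLAG and 7 anti-HMR lists, and psq (pipsqueak) in 9 and 7. Of the cohesin genes, SMC1 had a peak in 9 anti-FLAG and 3 anti-HMR lists, vtd in 6 and 8, the loader Nipped-B in 4 and 5, and SMC3, named after its values were seen, in 1 and 0. The satellite-binding prod was called in 9 and 3 lists, the nucleoporin gene FBgn0039120 in 8 and 5, Rm62 in 5 and 1, the condensin gene Cap-H2 in 4 and 4, and shep in 0 and 4. These counts pool the constructs. With anti-FLAG, Nipped-B had a peak in 0 of 5 HMR-dC and 4 of 5 HMR-wt lists, and with anti-HMR in 3 and 2. By the same anti-FLAG split vtd had 2 and 4, Elba1 3 and 5, and Rm62 2 and 3. SMC1, psq and prod had 5 and 4, SMC3 had 1 and 0, and the other genes named had equal counts. No gene passed after adjustment in that comparison.

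For the members called in at least 9 lists, the genes whose positions were closest over the 18 lists were found. Other members, and genes with a peak region in common with the member, such as CG12974 for Z4, were left out of this search. These were CG7071 and JMJD6 for Z4, at a mean difference of 3.54 percentage points of the list, and retn (5.59) and CG5823 (6.02) for pita. They were Sry-alpha and Sry-beta for mod(mdg4) (6.40 each), and CG34299 and tRNA:Leu-TAG-1-1 for su(Hw) (4.75 each). Each had a peak in the same lists as its member in 18 of 18. Equal values in a pair come from genes that share their peaks.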

How the data were processed

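Per the labels and methods, the authors aligned single-end reads to the dm6 build (bowtie2 2.2.9), kept those with a mapping quality of at least 2 (samtools 1.3.1) and ran the Homer 4.9 peak caller on each library at a peak size of 200 bp. The deposited lists hold chromosome, start and end only, so read depth, peak heights and scores were not used here, and no interval or detection limit could be given. Expression was not measured, so the cell line could not be checked by marker genes. No list was sorted by position, and regions shared by 2 lists stood in a like order (Spearman's rho across regions, which are not replicates, 0.609 to 0.960, median 0.840, over 45 anti-FLAG pairs and 0.396 to 0.909, median 0.745, over 28 anti-HMR pairs). The line was therefore read as a rank, and its meaning as peak strength is an assumption.

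Genes and transcript starts came from the Ensembl 115 annotation of the same assembly as dm6, and sequences from the RefSeq assembly of the same build. A gene had a peak when one overlapped it or the 1 kb around it. List position is the percentage of the list above the highest peak at a gene. Presence was compared by Fisher's exact test between constructs and by the exact sign-flip permutation test over 8 chromatin preparations between antibodies, and position by exact permutation tests, all two-sided, with Benjamini-Hochberg adjustment over all genes tested. Peaks overlapping by at least 1 bp were joined into regions. All 10 members were named, with other architecture genes in at least 5 of 10 anti-FLAG or 4 of 8 anti-HMR lists and neighbours that hold a peak. Named too were the 2 genes closest in position (no peak counted as 100), among non-members without a peak region in common with the member. The members and lists were chosen with earlier results of these data known. The permutation test of position between constructs was checked on simulated data. For the presence tests the simulation fixed the separation of the planted genes, so it could not check their calls. Alternatives were other windows, shorter lists, omitted libraries and line numbers. The 10 input libraries had no list. Python 3.11.15, numpy 2.4.6 and scipy 1.17.1 were used.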

Additional observations from a re-analysis of the deposited data

Results flagged for a closer look

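In 19 groups of 4 to 10 list positions screened by Dixon's test, a sample far from the others was found in 2, where chance gives about 1 in 20 groups. At mod(mdg4), anti-FLAG HMR-dC replicate 1 stood at 20.2% of the list, against 37.1 to 40.3% in the 3 other HMR-dC lists with a peak. At pita, anti-FLAG HMR-dC replicate 5 stood at 30.8%, against 5.36 to 11.1% in the 4 other HMR-dC lists. That library had the shortest HMR-dC list (1093 peaks) and was made with the NEBNext kit, and by line number (337) it stood next to replicate 4 (293). The part of list length or kit was not tested.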

How the results depend on the processing

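The peak lists carry no read depth or score, no test of presence gave a call after adjustment over all genes, and lists of 465 to 9049 peaks limit what absence of a peak means. No paired analysis was possible because the labels carry no replicate numbers and name no HMR-dC library and HMR-wt library as a pair, whereas the antibodies were paired by chromatin. Within the MicroPlex kit, without the 2 NEBNext libraries, 0 of the 10 genes passed for anti-FLAG presence.

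For presence, 0 of the 10 genes had an unadjusted p under 0.05 in each of the 3 comparisons. For list position, which needs a peak in every list, none of the 10 genes could be tested with anti-FLAG or between antibodies, and mod(mdg4) alone with anti-HMR, so their counts of 0 say nothing of the other genes. The shares of all genes passing under the alternatives stand beside the members' values in the report. For anti-FLAG against anti-HMR presence the count was 1 (su(Hw)) with the gene body alone, with the nearest transcript start only and with each list cut at its middle line, and 2 with the first 465 lines (pita, Z4) or without the pairing (BEAF-32, su(Hw)). For anti-HMR presence it was 0 to 1 over omitted libraries, 1 (Trl) without HMR-wt replicate 4. For list position by antibody it was 0 to 1 over omitted preparations (mod(mdg4)), and 4 with absent lists put at 100. In that setting su(Hw) and BEAF-32 largely restate their presence counts. For anti-FLAG position by construct it was 1 (pita) by line number without HMR-wt replicate 2, an alternative chosen after seeing the data, as was leaving out the shortest and the longest list. The 4 genes in at least 4 of 8 anti-HMR lists became 2 with the nearest transcript start only, and the 4 in at least 5 of 10 anti-FLAG lists became 2 within the first 465 lines.

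Signs turned, all without passing the threshold, for antibody presence at Trl (-25 points with the gene body alone and with the nearest start) and mod(mdg4) (50 points with the nearest start and within 1 kb of a start), for anti-FLAG presence by construct at Z4 (-20 points with the nearest start), and for anti-HMR position at mod(mdg4) (-5.35 to 4.97 over omitted libraries, with 0.0235, 1.46 and 4.97 without HMR-dC replicate 1, HMR-dC replicate 2 and HMR-wt replicate 4). The cause was not tested.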
